A study of Mus musculus with 6 samples.

Results

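Serpins are a large family of proteins that mostly inhibit serine or cysteine peptidases, and they are grouped by sequence into lettered clades. The serpins of the mouse liver were taken as every target of the array whose gene description contained the phrase for a serine (or cysteine) peptidase or proteinase inhibitor followed by "clade". Those reported here were 71 target rows and, with the brightest row kept for each gene, 52 genes of 36862 features in all. Of these genes, 21 belonged to clade A, 22 to clade B and 9 to clades C to I.

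Total RNA of whole liver was hybridised to 6 single-colour NimbleGen arrays, 1 mouse per array. All mice were wild-type males of the strain C57 BL/6, 9 to 10 weeks old. In the group called LPS, 3 mice received 0.01 µg of lipopolysaccharide, the endotoxin of Gram-negative bacteria. In the group called LPS/GalN, 3 mice received that dose together with 20 mg of D-galactosamine, an amino sugar that is handled mainly by hepatocytes and depletes their uridine nucleotides. Livers were examined after 2.5 h, and per the labels each replicate came from a separate treatment. Untreated mice and mice given GalN alone were not analysed here, so all changes are between the LPS/GalN and LPS groups, and neither group could be set against a resting liver.

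A serpin presents a flexible loop as bait, and the peptidase that cuts it is trapped and inactivated. Hepatocytes secrete most of the serpins of plasma, which restrain neutrophil elastase, clotting factors, plasmin and complement, while a few clade A members carry hormones instead of inhibiting a peptidase. Clade B serpins mostly stay inside cells, where they restrain granule and lysosomal peptidases. Several plasma serpins belong to the acute phase response, in which interleukin-6 and interleukin-1 act on hepatocytes through STAT3, NF-kB and C/EBP factors.

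Values are log2 RMA intensities, a scale on which 1 unit is a doubling. The random probes of an array, taken as its background, averaged 4.97 to 5.12, and the brightest target of an array reached 15.83 to 15.92. Targets with a group mean above 15 are here called bright-end targets, because little room is left for them to rise and a difference can be compressed. The number of arrays limits the precision. A level describes a target and its probes, so levels were not compared between genes. All 10 of 10 hepatocyte markers were above background on all arrays, and their summed intensity was 335100 to 360900 in LPS and 324800 to 343800 in LPS/GalN. The markers of sinusoidal endothelium summed to 4091 to 7003 in LPS and 9864 to 11930 in LPS/GalN, and those of Kupffer cells to 7069 to 10000 and 12830 to 16030. Neutrophil markers summed to 2669 to 3708 in LPS and 1056 to 1636 in LPS/GalN. Cholangiocyte markers summed to 3338 to 5275 and 1532 to 1974. Both sums were lower in LPS/GalN, and within each list the markers did not change alike. The brightest neutrophil markers, S100a8 and S100a9, had log2 changes of -1.66 and -1.55. Those of the other neutrophil markers lay between -0.745 (Camp) and 0.095 (Elane). Of the cholangiocyte markers, Krt19 had log2 values of 9.44, 9.15 and 5.19 in LPS and 5.03, 5.46 and 4.88 in LPS/GalN. Epcam read 11.24, 10.95 and 6.59 against 6.13, 6.36 and 6.96. Both genes were high on LPS replicates 1 and 2 only, while Krt7 and Spp1 changed by 0.30 and 0.31. At an adjusted p under 0.05, 2 of 7 neutrophil markers (S100a8 and S100a9) and 1 of 5 cholangiocyte markers (Sox9) were lower, beside 3.01% of all features. Higher were 3 of 8 endothelial markers (Pecam1, Egfl7 and Tie1) and 0 of 9 Kupffer cell markers, beside 0.6% of all features. The part of these cell types in the serpin results was not tested. Markers of intestinal epithelium stood out on LPS replicates 1 and 2, with sums of 20360 and 21540 against 2144 on LPS replicate 3 and 1747 to 2025 in LPS/GalN. Markers of thymocytes and T cells summed to 8352 and 5055 on LPS/GalN replicates 2 and 3, and to 341 to 538 on the other arrays. In whole liver, fewer cells of a type and less RNA per cell cannot be told apart.

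Of the 52 serpins, 5 were lower in LPS/GalN at an adjusted p under 0.05 (limma, Benjamini-Hochberg over all features), beside a background of 3.01% of all features called lower. They were Serpina3c, Serpina10, Serpina3f, Serpina3n and Serpina3m, with falls of between 2.72- and 5.04-fold. No serpin was called higher, beside 0.6% of all features. At an unadjusted p under 0.05 there were 2 serpins higher and 9 lower. The median log2 change of the 52 serpins was -0.056, and that of all features was 0.052. The 3 LPS and 3 LPS/GalN values did not overlap for 10 serpins that were lower and 4 that were higher, beside 11.1% and 12.9% of all features. All called members lay in clade A (5 of 21), and 0 of 22 clade B members were called.

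**Figure D1:**
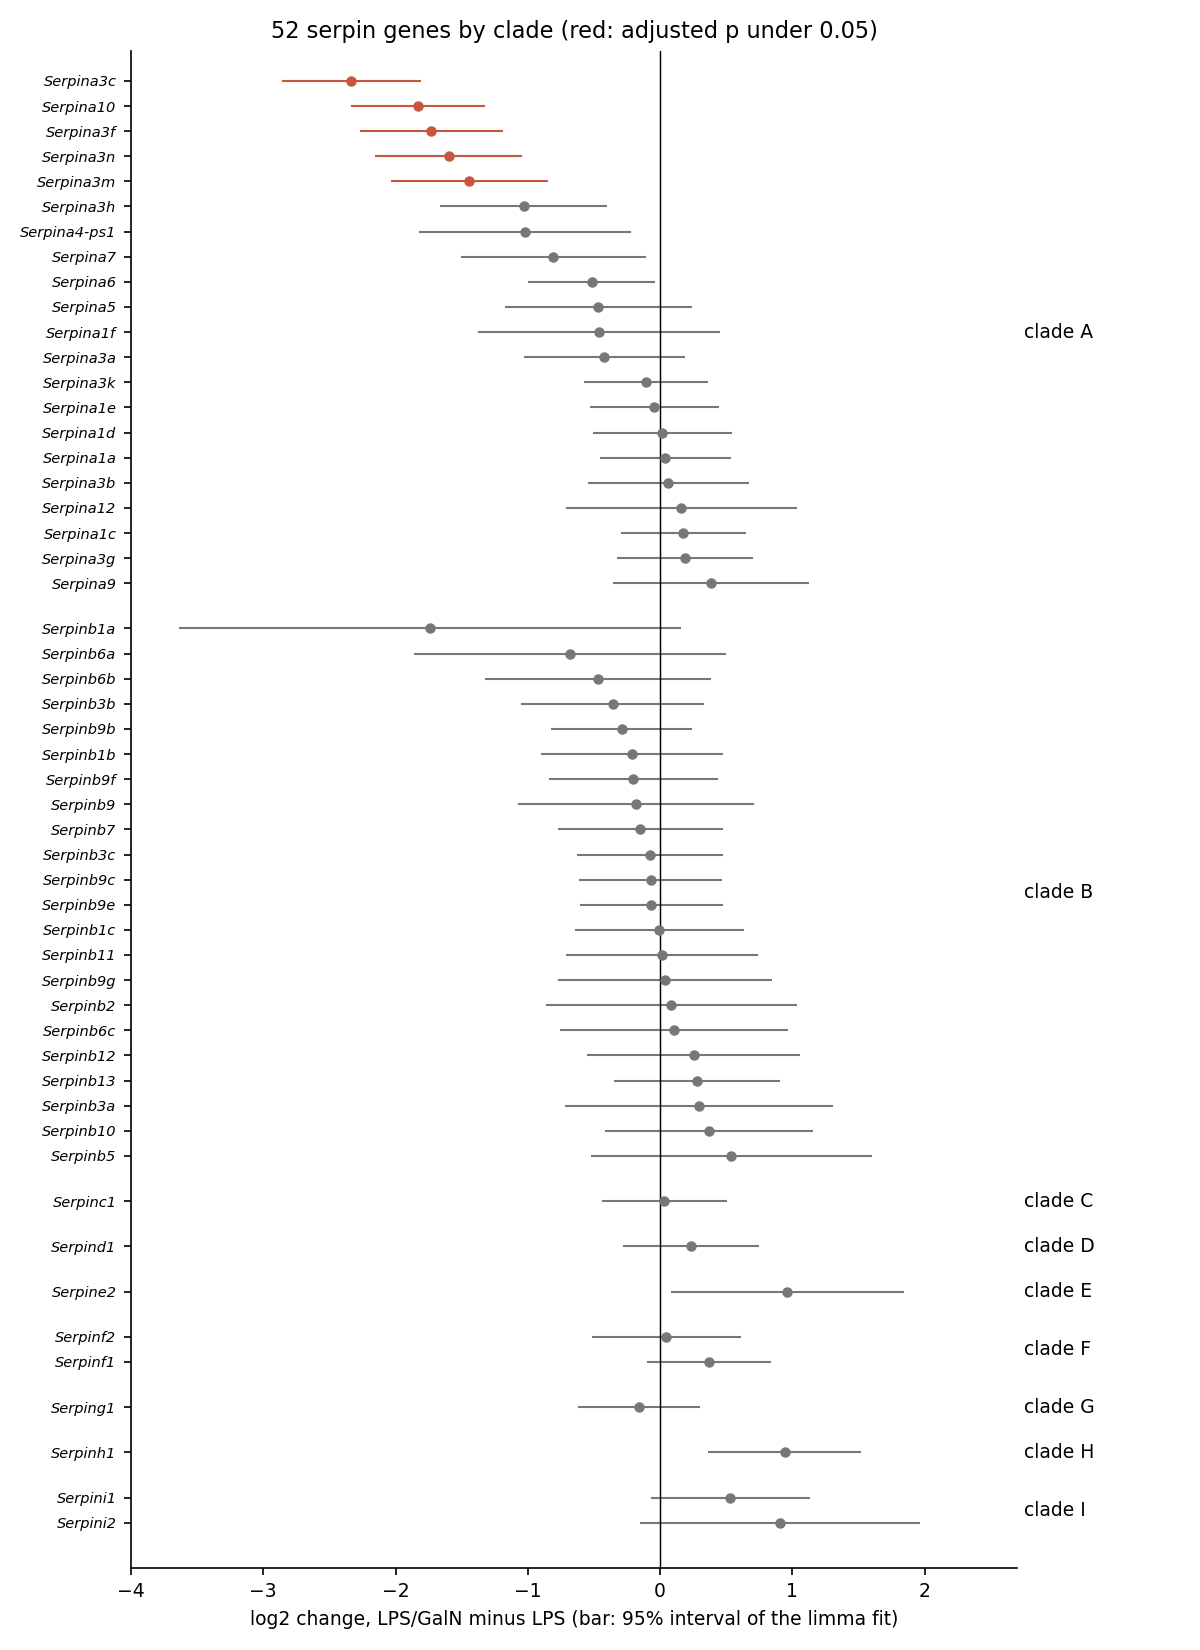
Log2 change (LPS/GalN minus LPS) of the 52 serpin genes, ordered within each clade. Points are the limma estimates, bars their 95% intervals, and red marks the 5 genes with an adjusted p under 0.05, the farthest of which is Serpina3c at -2.33.

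The Serpina3 genes are the mouse counterparts of human alpha-1-antichymotrypsin, an acute phase inhibitor of chymotrypsin-like peptidases that in the mouse was multiplied into a tandem family. All 9 measured members were above background on all arrays. Of these, 4 were called lower in LPS/GalN, beside 3.01% of all features, and the median log2 change of the 9 was -1.03.

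Serpina3c had log2 values of 11.36, 11.32 and 11.03 in LPS and 9.12, 8.81 and 8.78 in LPS/GalN. Every LPS/GalN array was below every LPS array by more than the spread within either group (SD 0.18 and 0.19, n = 3). Its log2 change was -2.33 (SE 0.23), a 5.04-fold fall with an adjusted p of 0.00166 in limma.

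Serpina3f read 10.59, 11.11 and 10.78 in LPS and 9.11, 8.95 and 9.24 in LPS/GalN. The groups were separated here as well, with the LPS/GalN arrays close together (SD 0.15, n = 3). The log2 change was -1.73 (SE 0.24) and the fold 3.31, with an adjusted p of 0.00594.

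Serpina3n, an acute phase protein also known as a marker of reactive astrocytes, read 15.59, 15.64 and 15.51 in LPS. In LPS/GalN it read 14.09, 13.62 and 14.22, and LPS/GalN replicate 2 was the lowest. The estimated fall was 3.03-fold (log2 change -1.60, SE 0.24, 95% interval -2.15 to -1.05, adjusted p 0.00936 in limma). It was a bright-end target in LPS, so the difference can be compressed.

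Serpina3m read 13.74, 13.41 and 13.57 in LPS and 12.32, 11.71 and 12.36 in LPS/GalN, with no overlap. The log2 change was -1.44 (SE 0.26), a 2.72-fold fall with an adjusted p of 0.0214. Its other target row read 13.26, 12.22 and 12.89 against 11.53, 10.58 and 11.10, and changed by -1.72. This call was the least secure of the 5. It was lost without LPS replicate 1, 2 or 3, or without LPS/GalN replicate 2, with adjusted p-values from 0.0296 to 0.0963 over the 6 omissions and log2 changes from -1.56 to -1.23.

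The other 5 family members did not pass the threshold. Serpina3h read 8.22, 8.62 and 8.92 in LPS and 7.55, 7.26 and 7.86 in LPS/GalN. Its groups did not overlap, and its log2 change of -1.03 (95% interval -1.66 to -0.40) had an adjusted p of 0.0958, which was 0.0356 in the deposited value table of the series and 0.0456 with trend and robust fitting. Serpina3a changed by -0.42 and Serpina3b by 0.063.

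Serpina3g, also known as Spi2A and studied as an intracellular inhibitor of cathepsins in immune cells, read 11.26, 11.55 and 11.38 in LPS and 11.52, 11.43 and 11.79 in LPS/GalN. Its groups overlapped, and the log2 change was 0.19 (95% interval -0.32 to 0.70). Its other rows changed by -0.10 and -0.58, so the mean of its rows had the opposite sign, at -0.16. Serpina3k, also known as contrapsin and kallikrein-binding protein, read 15.39, 15.33 and 15.37 against 15.22, 15.37 and 15.20. It was a bright-end target in both groups, and its log2 change was -0.11 (95% interval -0.58 to 0.36).

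Members of the family are close in sequence and probe positions are not in the files, so signal shared between paralogs was not tested. Serpina3i, a target outside the chosen description that was named through its RefSeq accession, read 8.10, 8.26 and 8.14 in LPS and 6.16, 6.04 and 6.18 in LPS/GalN. It was called lower too (4.10-fold, adjusted p 0.00185), and it was singled out after its values were seen. Serpina3j, named in that way as well, read 4.71, 4.66 and 4.43 against 4.77, 5.44 and 4.90, close to background.

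The promoters of 3 called members and of Serpina3g, which was not called, are shown because the genes lie in one cluster and only the first 3 were called. Each is the 250 bases before the transcript start, from RefSeq on GRCm38.p6, read 5′ to 3′ along the gene, and for Serpina3f the first of the listed starts was taken. Capitals mark matches to a STAT motif (TTCNNNGAA), to a C/EBP motif (TTGCNNAA) or to the NF-kB consensus, searched on both strands. In Serpina3c and Serpina3n they mark the 9 bases that align with the STAT match of Serpina3g.
Serpina3c, chr12:104153873-104154122, minus strand: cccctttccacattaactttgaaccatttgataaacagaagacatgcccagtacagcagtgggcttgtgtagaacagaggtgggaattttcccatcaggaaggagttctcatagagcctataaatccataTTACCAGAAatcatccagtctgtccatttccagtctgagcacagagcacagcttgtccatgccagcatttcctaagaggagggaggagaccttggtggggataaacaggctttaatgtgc
Serpina3n, chr12:104406458-104406707, plus strand: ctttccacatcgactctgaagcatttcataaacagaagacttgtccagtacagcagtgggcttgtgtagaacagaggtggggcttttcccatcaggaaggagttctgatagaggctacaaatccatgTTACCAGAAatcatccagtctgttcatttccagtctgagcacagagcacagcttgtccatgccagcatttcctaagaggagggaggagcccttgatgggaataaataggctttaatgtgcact
Serpina3f, chr12:104214294-104214543, plus strand: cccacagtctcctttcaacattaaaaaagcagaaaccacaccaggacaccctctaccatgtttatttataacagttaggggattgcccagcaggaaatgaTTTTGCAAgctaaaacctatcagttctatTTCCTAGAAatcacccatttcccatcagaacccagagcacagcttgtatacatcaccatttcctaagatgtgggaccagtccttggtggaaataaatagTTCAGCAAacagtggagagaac
Serpina3g, chr12:104235897-104236146, plus strand: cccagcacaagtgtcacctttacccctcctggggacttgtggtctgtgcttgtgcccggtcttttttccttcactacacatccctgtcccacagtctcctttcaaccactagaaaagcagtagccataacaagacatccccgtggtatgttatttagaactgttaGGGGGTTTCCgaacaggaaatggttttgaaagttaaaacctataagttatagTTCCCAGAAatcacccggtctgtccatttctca

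The Serpina3c and Serpina3n windows were 92.7% identical over 247 aligned bases, and the other pairs among these genes were 70.4 to 78.3% identical over 155 to 233 bases. Serpina3f held the STAT motif as TTCCTAGAA, starting 121 bases before its start, and Serpina3g as TTCCCAGAA, starting 33 bases before its start. At the aligned place, Serpina3c and Serpina3n both read TTACCAGAA, which departs from the motif by C3A, counted from 1 at its 5′ end. Serpina3f also had 2 C/EBP matches, and Serpina3g had 1 match to the NF-kB consensus. The windows of Serpina3a and Serpina3b, also uncalled genes of the cluster, are not printed. Neither held a STAT or NF-kB match, and Serpina3b held 1 C/EBP match. A match is a description of letters only. RefSeq's table held a window for 42 of the 52 serpins, 49 windows in all because some genes have several starts, whose windows can overlap. The STAT motif occurred in 14.3% of these windows and 7.02% of all 32851 promoter windows, the C/EBP motif in 26.5% and 9.56%, and the NF-kB consensus in 4.08% and 3.9%.

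Of the 21 clade A members, 20 lay on chromosome 12 between 104854884 and 105652539 (mm9, as the files give it), a stretch of 797.7 kb. Serpina10 opened the stretch and the 9 Serpina3 members closed it, from 105350933 on. The targets of Serpina3f, Serpina3g and Serpina3h overlap in the files' coordinates, so their order is not settled by them. The uncalled Serpina3k lay between that group and the called Serpina3m and Serpina3n.

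**Figure D2:**
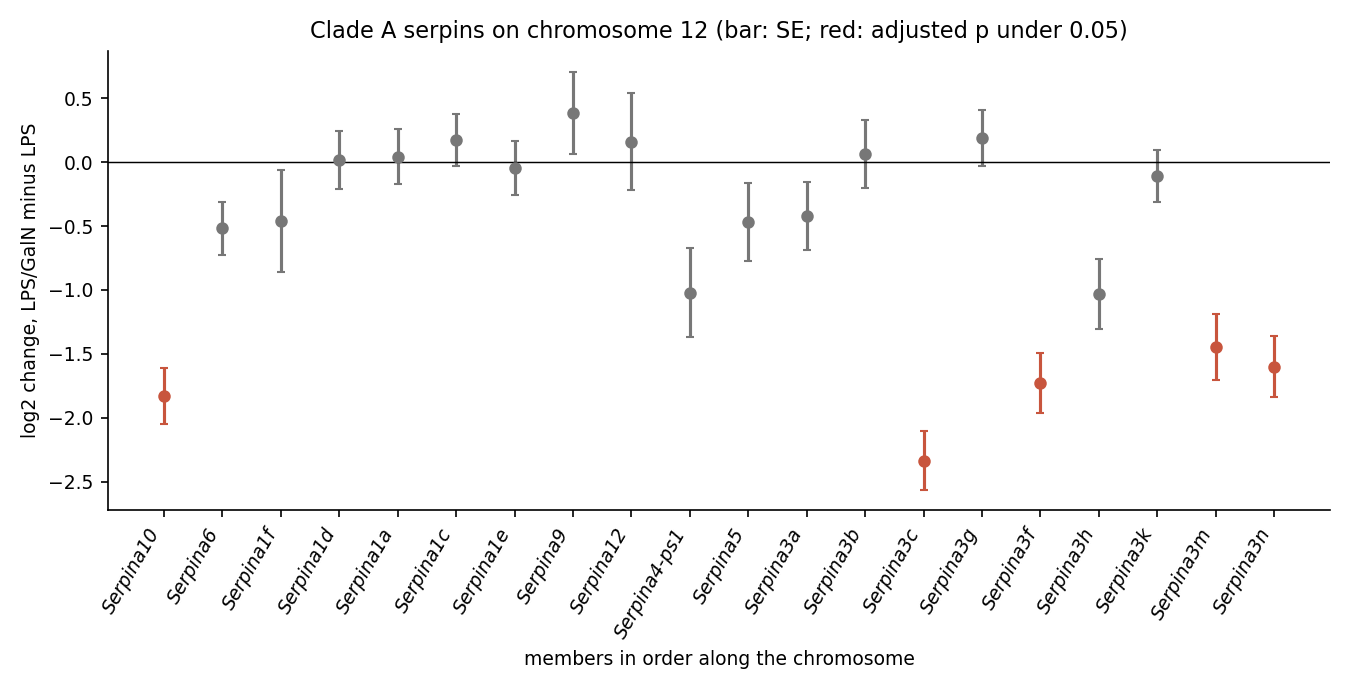
Log2 change (LPS/GalN minus LPS) of the 20 clade A serpins on chromosome 12 in the order of their mm9 starts, with SE bars. Red marks the 5 called genes, which lie at the Serpina10 end and among the Serpina3 genes, and Serpina1a, Serpina1c, Serpina1d and Serpina1e in between lie near 0. Serpina3f, Serpina3g and Serpina3h overlap in position.

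The Serpina1 genes encode alpha-1-antitrypsin, the main plasma inhibitor of neutrophil elastase. None of their 5 measured members was called, and their median log2 change was 0.018, between -0.46 for Serpina1f and 0.17 for Serpina1c. Serpina1f was near background, above it on 3 LPS and 2 LPS/GalN arrays. Serpina1a read 15.49, 15.52 and 15.58 in LPS and 15.59, 15.37 and 15.75 in LPS/GalN, and its dimmer row changed by -0.625. Serpina1a, Serpina1c, Serpina1d and Serpina1e were all bright-end targets, and they too are close paralogs. Their 95% intervals together ran from -0.53 to 0.65. Serpina1b, outside the chosen description because that text is misspelt in the files, changed by 0.051.

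Several plasma serpins control clotting and fibrinolysis, and 1 of those described here was called. Serpina10, the protein Z-dependent inhibitor that switches off factor Xa, read 13.95, 14.10 and 14.01 in LPS. It read 12.32, 11.94 and 12.32 in LPS/GalN, below all LPS arrays. The log2 change was -1.83 (SE 0.22), a 3.56-fold fall with an adjusted p of 0.00364. Its second row, 13.59, 13.59 and 13.82 against 12.30, 12.01 and 12.11, changed by -1.53. The mRNA of its target, factor X (F10), was a bright-end target and changed by 0.061.

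**Figure D3:**
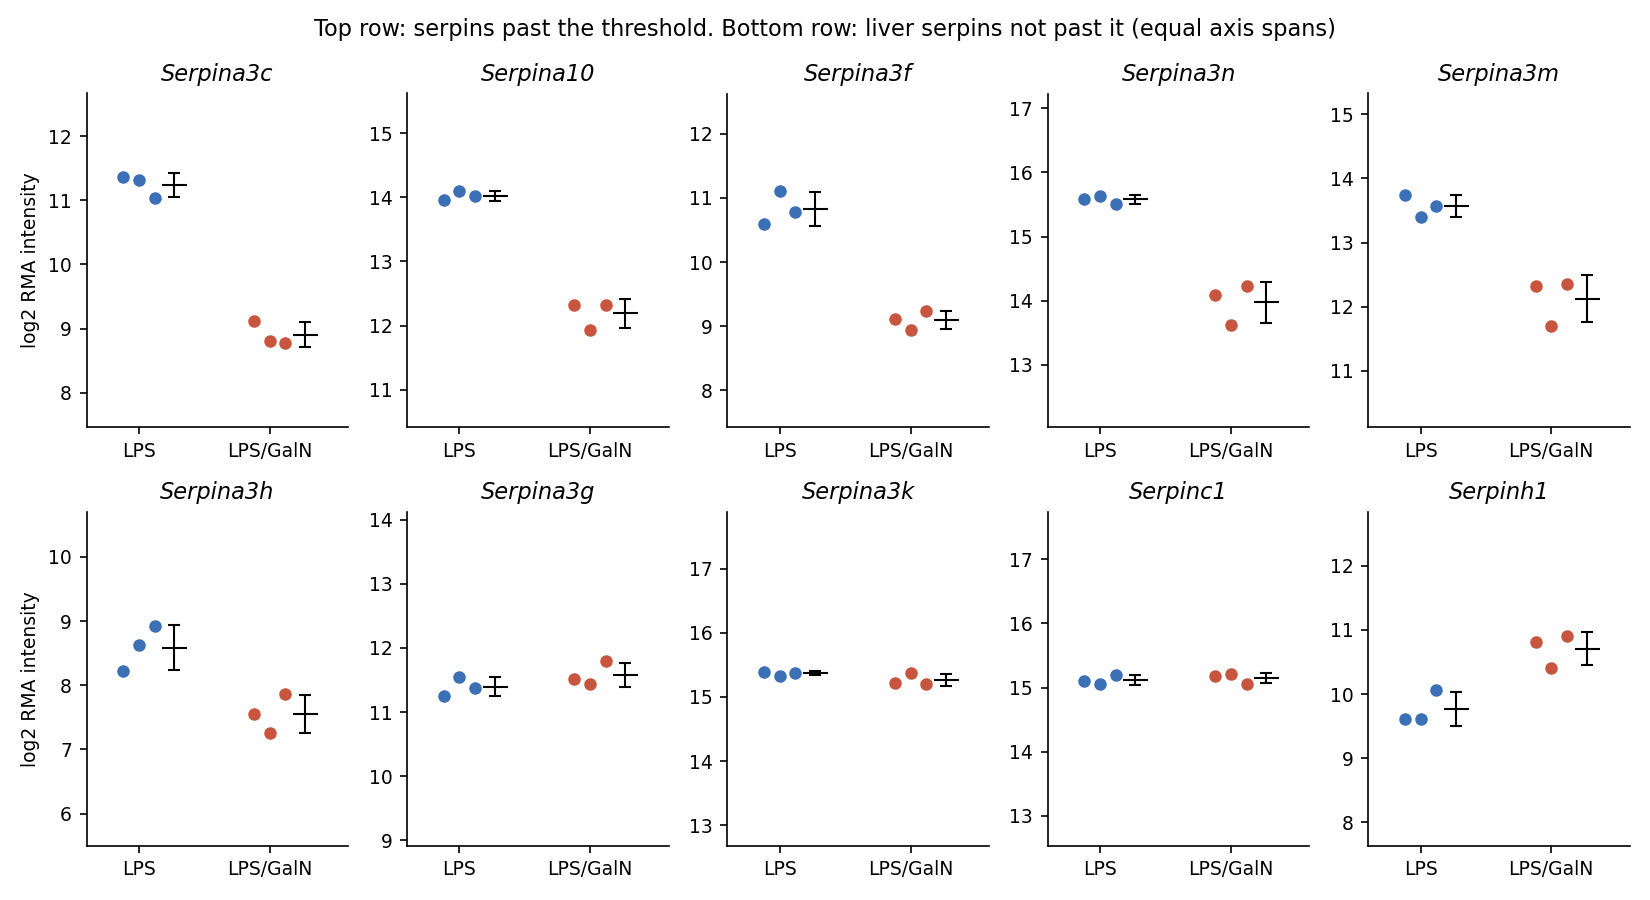
Log2 RMA intensity on each array for the 5 called serpins (top row) and 5 serpins that were not called (bottom row). Blue points are the 3 LPS mice, red points the 3 LPS/GalN mice, and the bars the mean and SD; every axis covers the same span. The groups are separated in all called genes and overlap in Serpina3g, Serpina3k and Serpinc1.

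Antithrombin (Serpinc1), the heparin-dependent inhibitor of thrombin and factor Xa, read 15.10, 15.05 and 15.20 in LPS and 15.19, 15.21 and 15.06 in LPS/GalN. Its groups overlapped at the bright end, and the 95% interval of its log2 change ran from -0.44 to 0.50. Heparin cofactor II (Serpind1), which inhibits thrombin on dermatan sulphate, read 13.43, 13.59 and 13.85 against 13.93, 13.73 and 13.92, with a change of 0.23 (95% interval -0.28 to 0.75). Alpha-2-antiplasmin (Serpinf2), the main plasmin inhibitor, changed by 0.046 (95% interval -0.52 to 0.61). Thus Serpina10 was called lower and these 3 were not, and the differences between the genes were not tested.

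C1 inhibitor (Serping1), which restrains complement C1 and plasma kallikrein, read 15.25, 15.27 and 15.26 in LPS and 15.12, 15.06 and 15.12 in LPS/GalN. All LPS/GalN values were lower, but by only -0.16 (95% interval -0.62 to 0.30, adjusted p 0.746), again at the bright end. Pigment epithelium-derived factor (Serpinf1), a serpin that inhibits no known peptidase and restrains vessel growth, read 14.61, 14.76 and 14.78 against 15.13, 15.04 and 15.08. It was a bright-end target in LPS/GalN and was higher there on all arrays, by 0.37 with an adjusted p of 0.405. With trend and robust fitting it was called, at an adjusted p of 0.0134, while its dimmer row changed by 0.029.

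Neither hormone carrier of clade A passed the threshold. Serpina6, or corticosteroid-binding globulin, read 15.25, 15.19 and 15.01 in LPS and 14.65, 14.70 and 14.55 in LPS/GalN. It was a bright-end target in LPS. The groups did not overlap, and the log2 change of -0.52 (95% interval -0.998 to -0.038) had an adjusted p of 0.251, or 0.00129 with trend and robust fitting. Serpina7, or thyroxine-binding globulin, is the clade A member on chromosome X. It read 7.74, 7.55 and 7.18 against 6.75, 6.17 and 7.13, without overlap, and changed by -0.81 (adjusted p 0.219). Angiotensinogen (Agt), a serpin outside the chosen description, changed by -0.14.

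The remaining clade A members were not called. The pseudogene Serpina4-ps1 read 11.76, 12.69 and 11.36 in LPS and 11.08, 10.80 and 10.86 in LPS/GalN, a change of -1.02 with an adjusted p of 0.178. Without LPS replicate 2 the change was -0.65, and its second row changed by -0.44. Serpina5, the protein C inhibitor, changed by -0.47, Serpina9 by 0.39 and Serpina12, or vaspin, by 0.16. Serpina5 and Serpina12 were not above background on every array.

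Serpinh1, or Hsp47, is the collagen chaperone of the endoplasmic reticulum. It read 9.62, 9.61 and 10.07 in LPS and 10.80, 10.41 and 10.90 in LPS/GalN. The groups did not overlap, and the log2 change of 0.94 (95% interval 0.37 to 1.52) had an adjusted p of 0.0952. Its other row, near background and placed by the files on chromosome 8, changed by -0.12, and with the rows averaged the change was 0.41 (adjusted p 0.506). The brighter row was called higher, with an adjusted p of 0.0308, 0.0460 or 0.00509, in the deposited value table, with features below the median left out, and with trend and robust fitting. Markers of stellate cells and fibroblasts, which make collagen, summed to 7558 to 8825 in LPS and 9518 to 10580 in LPS/GalN. Their part in the Serpinh1 values was not tested.

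Protease nexin 1 (Serpine2), a cell-surface inhibitor of thrombin, read 5.24, 6.02 and 4.63 against 5.85, 6.65 and 6.28. The groups overlapped, and the change of 0.96 had an adjusted p of 0.245. Serpini1, or neuroserpin, was above background on 0 LPS arrays and on all 3 LPS/GalN arrays, reading 4.79, 5.05 and 4.99 against 5.21, 5.29 and 5.92. Most of these values were near background in both groups, and its dimmer second row changed by 0.62. Serpini2 was above background on 0 LPS and 2 LPS/GalN arrays. Neither clade I gene was called (adjusted p 0.347 and 0.364).

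Among the 22 clade B serpins the median log2 change was -0.068, and the changes ran from -1.74 for Serpinb1a to 0.54 for Serpinb5. Serpinb5 read 5.30, 4.67 and 4.96 in LPS and 5.32, 6.58 and 4.65 in LPS/GalN, high on LPS/GalN replicate 2 alone. Without that array its change was 0.0090, and its other row changed by 0.15. On the same array the squamous epithelium markers summed to 1098, against 294 to 473 on the others, and their part in the value was not tested. In 0 of the 22 were the groups separated, beside 11.1% of all features separated as lower and 12.9% as higher. Only 6 were above background on all arrays (Serpinb1a, Serpinb6a, Serpinb6b, Serpinb6c, Serpinb9 and Serpinb10), Serpinb3c was above it on none, and 15 on some. In the others, the low signal limits what difference could be seen. The Serpinb6 and Serpinb9 genes are also close paralogs.

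Serpinb1a, which inhibits neutrophil elastase and cathepsin G inside cells, read 9.46, 8.41 and 5.82 in LPS and 5.82, 5.82 and 6.83 in LPS/GalN. LPS replicates 1 and 2 were high, while LPS replicate 3 was at the level of LPS/GalN. The log2 change was -1.74 (95% interval -3.64 to 0.16, adjusted p 0.329). Its second row gave 8.44, 8.01 and 5.26 against 4.91, 5.78 and 5.97, the same arrays being high. Serpinb6a, an inhibitor of trypsin-like peptidases and cathepsin G, read 8.96, 9.23 and 7.13 against 7.92, 7.76 and 7.59, again high on LPS replicates 1 and 2 and lowest on LPS replicate 3. Its change was -0.68 with an adjusted p of 0.550. Its other, dimmer rows changed by -0.48 and 0.31, and the mean of its rows by -0.28. Without LPS replicate 1, 2 or 3 the brightest row changed by -0.42, -0.29 and -1.34.

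These were the arrays on which the intestinal epithelium markers were raised, except Cdx2, which was above the other arrays on LPS replicate 2 only. With LPS replicates 1 and 2 left out, the changes had the opposite sign, 0.33 for Serpinb1a and 0.63 for Serpinb6a, with 1 LPS array left and no call. With LPS replicate 3 left out, both were called lower (adjusted p 0.0200 and 0.0412). The part of intestinal transcripts in these values was not tested further. In each of the 5 called serpins, LPS replicate 3 lay above all LPS/GalN arrays. A split within LPS widens the error and works against a call, so this was partly fixed by choosing called genes. The part of intestinal transcripts in these 5 genes was not tested. With LPS replicates 1 and 2 left out, their log2 changes were -2.13 for Serpina3c, -1.82 for Serpina10, -1.68 for Serpina3f, -1.53 for Serpina3n and -1.44 for Serpina3m. None passed the threshold in that fit, in which 0 of all 36862 features were called in either direction.

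**Figure D4:**
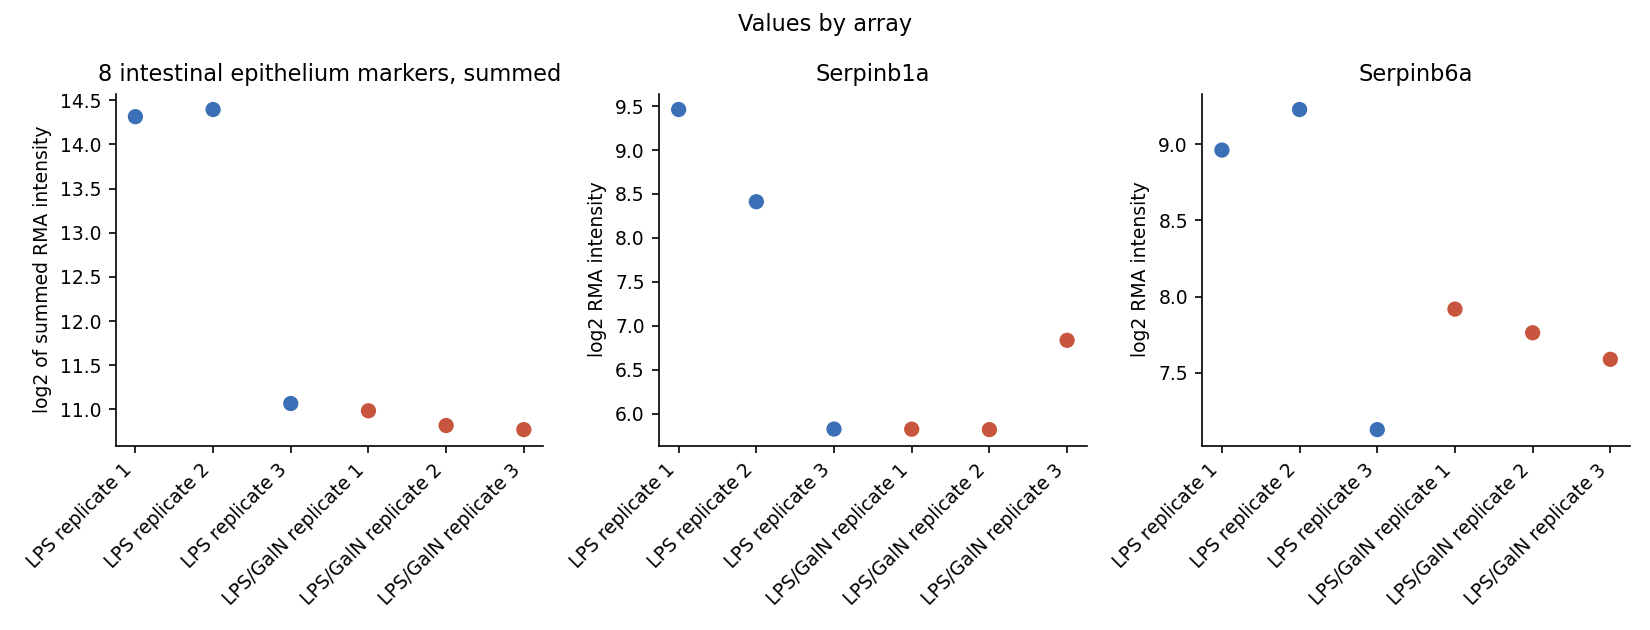
Log2 of the summed intensity of 8 intestinal epithelium markers, and log2 RMA intensity of Serpinb1a and Serpinb6a, on each of the 6 arrays (blue LPS, red LPS/GalN). LPS replicates 1 and 2 are the 2 highest arrays in each panel.

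Serpinb9, which protects cells from granzyme B, read 7.08, 8.46 and 7.85 in LPS and 7.29, 7.47 and 8.10 in LPS/GalN. Its groups overlapped, and its change was -0.18 (95% interval -1.07 to 0.71). Granzyme B (Gzmb) itself changed by -0.59 without a call.

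The peptidases that serpins inhibit gave no call in either direction among 32 measured genes, beside 3.01% of all features called lower and 0.6% higher, with a median change of 0.15. Of the 32, 9 were not above background on every array and 4 were bright-end targets, which limits what difference could be seen. The list included thrombin (F2, -0.10), plasminogen (Plg, 0.12) and hepsin (Hpn, 0.18). The lowest, matriptase (St14), read 10.27, 10.36 and 6.53 in LPS and 5.99, 7.17 and 6.75 in LPS/GalN, high on the arrays with raised intestinal markers. Of 11 cofactors, receptors and hormone partners of serpins, 0 were called, and the median was 0.012.

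Of 28 peptidase inhibitors that are not serpins, 2 fell and 0 rose, beside 3.01% and 0.6% of all features, and the median change was -0.15. Alpha-2-macroglobulin (A2m), which cages peptidases of all classes, read 8.66, 10.16 and 10.07 in LPS and 6.33, 5.87 and 6.03 in LPS/GalN. It fell 11.8-fold (adjusted p 0.00304), with groups far apart. Timp1, an inhibitor of metalloproteinases, read 9.59, 10.29 and 10.02 against 8.17, 8.37 and 8.28, a 3.23-fold fall (adjusted p 0.00868).

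The genes of interleukin-6, interleukin-1 and C/EBP signalling, which drive acute phase serpins in hepatocytes, had a median change of -0.73 over 11 measured members. Of these, 3 fell and 0 rose, beside 3.01% and 0.6% of all features. The interleukin-1 receptor Il1r1 read 12.32, 12.44 and 12.29 in LPS and 9.18, 8.33 and 8.55 in LPS/GalN (12.7-fold, adjusted p 0.000541). Socs3, the feedback inhibitor induced by STAT3, read 13.69, 13.73 and 13.34 against 10.31, 9.95 and 10.18 (10.9-fold, adjusted p 0.000345). Stat3 read 15.107, 15.003 and 15.185 against 13.76, 13.67 and 13.77. The estimated fall of Stat3 was 2.58-fold (95% interval of the log2 change -1.84 to -0.90, adjusted p 0.00929 in limma). It was at the bright end in LPS, so the difference can be compressed. Il6 was near background and changed by 0.022. Whether these genes and the Serpina3 members are linked was not tested.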

How the data were processed

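Liver RNA of 6 mice (3 LPS, 3 LPS/GalN) was measured on 6 single-colour arrays. The authors deposited 1 table of intensity per array, per the file headers, normalized and summarised by RMA per the submitters' processing notes. Neither a version nor settings of RMA are given in the sources used here. The design held 44170 targets of 3 probe pairs each, per the labels. RMA makes the arrays alike in distribution, so a global change in RNA per cell is removed. The deposited intensity was converted to log2 here. Rows of a gene name were joined by keeping the brightest row on average, which left 36862 features.

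The groups were compared in limma 3.58.1 (lmFit, eBayes, 4.04 prior degrees of freedom, two-sided) in R 4.3.3. Benjamini-Hochberg adjustment covered every feature, the threshold was 0.05, and no filter was applied. Intervals are at 95%. A group mean above a log2 of 15 was taken as near the top of the scale, a limit chosen after values were seen. The limma fit was tested on simulated data with known changes. The main fit did not pair mice by replicate number. Deviations of same-numbered arrays correlated at 0.0015, -0.0029 and 0.026 across features, and those of other pairs at -0.0685 to 0.0636. With 3 arrays per group, such values cannot show that the mice were unpaired.

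The members and gene lists were chosen with earlier results of these data known. Called members, liver-made members of clades A and C to H, and the brightest and most changed member of each clade were named, with up to 4 called genes per list. Other genes named beside them, such as peptidase partners, were chosen after their values were seen. Of the listed genes, F9, Prtn3, Mug2, Stfa1, Plaur, Cebpb and Cebpd were not matched to a row. 1 member of the family is not reported here. Coordinates are mm9 as in the files, and promoter sequences are from RefSeq on GRCm38.p6. Alternatives covered the joining of rows, filters, normalization, the fit and leaving out arrays.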

Additional observations from a re-analysis of the deposited data

How the results depend on the processing

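The number of serpins called lower was 4 to 6 with 1 array left out and 5 with the replicate number as a block. It was 6 in the deposited value table (27 members) and 7 with trend and robust fitting. When members were widened to every serpin symbol, an alternative chosen after seeing the data, it was 6. It was 0 without LPS replicates 1 and 2, and 0 without LPS/GalN replicates 2 and 3, where 1 array stands for a group and is assumed to vary like the others. Serpins called higher numbered 1 in the deposited value table (27 members), 1 with features below the median left out, and 2 with trend and robust fitting. Their median change was -0.18 in the deposited value table, which holds fewer, brighter genes. Over all features, 650, 508, 391, 909 and 114 were called higher in the value table, with features below the median left out, with log2 of intensity plus 16, with trend and robust fitting, and with the replicate block. Leaving out LPS replicate 1 or 2 or any LPS/GalN array moved this count over 1.5 times, within 40 to 649, and leaving out LPS replicate 1 or 2 moved the count of lower features, within 668 to 1114. Those counts were 0 and 0 without LPS replicates 1 and 2, and 19 higher and 250 lower without LPS/GalN replicates 2 and 3. The cause was not tested. Sign changes occurred only in uncalled genes, mostly near 0. With rows averaged, Serpina1a changed by -0.292 and Serpina3g by -0.164. With median centring, Serpina1d changed by -0.022 and Serpinc1 by -0.007. Without LPS replicates 1 and 2, Serpina1a changed by -0.006, Serpina1d by -0.148, Serpina1e by 0.076, Serpinb1a by 0.334, Serpinb6a by 0.629, Serpinc1 by -0.052 and Serpinf2 by -0.289. With 1 array left out, ranges crossed 0 for Serpina1a (-0.048 to 0.141), Serpina1d (-0.059 to 0.151), Serpina1e (-0.106 to 0.033), Serpinb9 (-0.54 to 0.153) and Serpinf2 (-0.06 to 0.214). A slide or scan block was not run, because the headers give 1 image per array. Genes near background or near the top of the scale can hide a change.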
